A study of Homo sapiens with 4 samples.

Results

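The EGF receptor family and its ligands were followed here in MDA-MB-231, an established human line of triple-negative breast cancer. The members were the 9 genes of the deposited table of 20804 genes with the symbols EGFR, ERBB2, ERBB3, HBEGF, AREG, EREG, TGFA, NRG1 and ERRFI1. They comprise 3 receptors, 5 ligands and 1 intracellular inhibitor. RNA-seq gave 1 FPKM value (fragments scaled to transcript length and to the library's mapped fragments) per gene in each of 4 libraries, 2 labelled WT and 2 labelled miR-3662-KO, here called KO. The genotype is the only label that differs between the groups. No treatment, time or passage is given, and the series design text also speaks of a sort by the activity of this microRNA. The series title names CRISPR interference and activation, methods that act on transcription and leave the gene in place, while the sample labels give a knockout, so whether KO stands for a deletion is uncertain. How the KO cells were made, and whether the libraries of a group are separate cultures or clones, the labels leave unsaid, so the p-values measure only the spread between these libraries, which may be technical.

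The EGF receptor is a tyrosine kinase of the cell surface. Its ligands are made as membrane-anchored precursors that proteases release, and a bound ligand joins receptors of the family into pairs whose kinases switch on the RAS-ERK and PI3K pathways. ERBB2 has no known ligand of its own and acts as a partner, ERBB3 binds neuregulins and signals mainly through such partners, and ERRFI1 binds the active kinase domain and blocks it. Basal-like breast cancers are known for EGFR and MDA-MB-231 for little ERBB2.

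Since the groups differ by a microRNA, its mature sequence is shown with the seed (bases 2 to 8) in capitals, from RefSeq (chr6:134979355-134979378, minus strand, GRCh38.p14).
hsa-miR-3662: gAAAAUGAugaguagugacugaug

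For each gene the longest 3′ UTR in GENCODE 29 (GRCh38) was searched on the transcript strand for TCATTTT, the 7 letters that pair with the seed. EGFR, ERBB3, EREG and TGFA held a match, 5 matches in 4 of the 9 members. HBEGF, AREG, NRG1, ERBB2 and ERRFI1 held none. Over the tested genes with such a UTR, 33.5% of 10622 held at least 1, and these UTRs were long, with a median of 2798 bases against 899 without a match. The matches are shown in capitals within 30 bases of transcript, because they are the places in the members where the seed could pair.
EGFR: tttttagaaacTCATTTTtctactaaaaca
ERBB3: tacatattatcTCATTTTacacaaagggaa
EREG, first match: aaaactagggcTCATTTTcctgacatttgt
EREG, second match: ataaaaacaagTCATTTTtgtatttttcat
TGFA: gacccgtgtctTCATTTTtggcactcttat

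In genome coordinates the match of EGFR is at chr7:55209816-55209822, that of ERBB3 at chr12:56102669-56102675, those of EREG at chr4:74386031-74386037 and chr4:74387457-74387463 (all plus strand), and that of TGFA at chr2:70449150-70449156 (minus strand). The UTR of EGFR is 6011 bases long, and among 616 UTRs of 0.8 to 1.2 times that length 79.9% held a match. For EREG (3943 bases) the share was 61.7% of 1179, for TGFA (3579 bases) 59.2% of 1301 and for ERBB3 (1450 bases) 31.3% of 1581. Of the members without a match, NRG1 had the longest UTR (3557 bases, a share of 59.3%) and AREG the shortest (269 bases, 3.79%). A match is a description of letters and not evidence of binding.

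The FPKM values summed to between 504102 and 544650 per library, and no read totals were at hand, so the depth behind a value is unknown. Spearman correlations across genes were 0.979 within WT, 0.980 within KO and 0.966 to 0.970 between the groups. The microRNA is too short for such libraries, so its loss cannot be checked in the table. Of markers of a mesenchymal-like line, VIM was at 1120 to 1321 FPKM and CD44 at 104 to 114. Of 10 luminal epithelial markers 9 were listed and summed to 586 and 687 FPKM in WT and to 386 and 342 in KO, mostly KRT8 and KRT18, with ESR1 and CDH1 at 0.05 FPKM or less in every library. Of the 5 tested, KRT8, KRT18 and EPCAM fell and none rose, EPCAM having entered the test only through its WT values. The part of this fall in the values of the members was not tested. Of 5 basal epithelial markers 4 were listed and summed to 0.05 to 0.08 FPKM per library. KRT5, KRT14 and KRT17 were at 0.05 or less in every library, so RNA of these basal markers was nearly absent. Of 6 leukocyte markers 5 were listed and summed to 30.3 and 39.3 FPKM in WT and to 68.0 and 117 in KO, almost all of it CD68 (a lysosomal protein gene that many cells express), with PTPRC and CD3E at 0.05 or less. Of 5 endothelial markers all were listed and summed to at most 0.71 FPKM, and 5 of 7 fibroblast markers summed to 1.16 and 1.57 FPKM in WT and to 0.36 and 0.39 in KO.

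The comparison of KO with WT asked which parts of the receptor system differed in RNA level. The inhibitor ERRFI1 and the ligand EREG rose in KO, and the ligand HBEGF fell. EGFR, ERBB2, AREG, TGFA and NRG1 did not pass, and ERBB3 lay below the filter of at least 1 FPKM in at least 2 libraries. Of the 8 tested members 2 rose and 1 fell at an adjusted p under 0.05 (limma on log2(FPKM + 1), Benjamini-Hochberg over all tested genes). The same test called 27% of all 11786 tested genes, 16.2% higher and 10.8% lower, and the members' 37.5% is 3 genes of 8. With 1 library left out 1402 to 1902 of all genes and 2 to 3 members were called. After median of ratios scaling 12% were higher and 15.5% lower (27.5% in all), and the members numbered 2 higher and 2 lower. The KO and WT values did not overlap in 4 of the 8 tested members, against 68% of all tested genes. The libraries are bulk RNA, in which a change in the share of cells that make a transcript and a change in RNA per cell cannot be told apart.

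**Figure D1:**
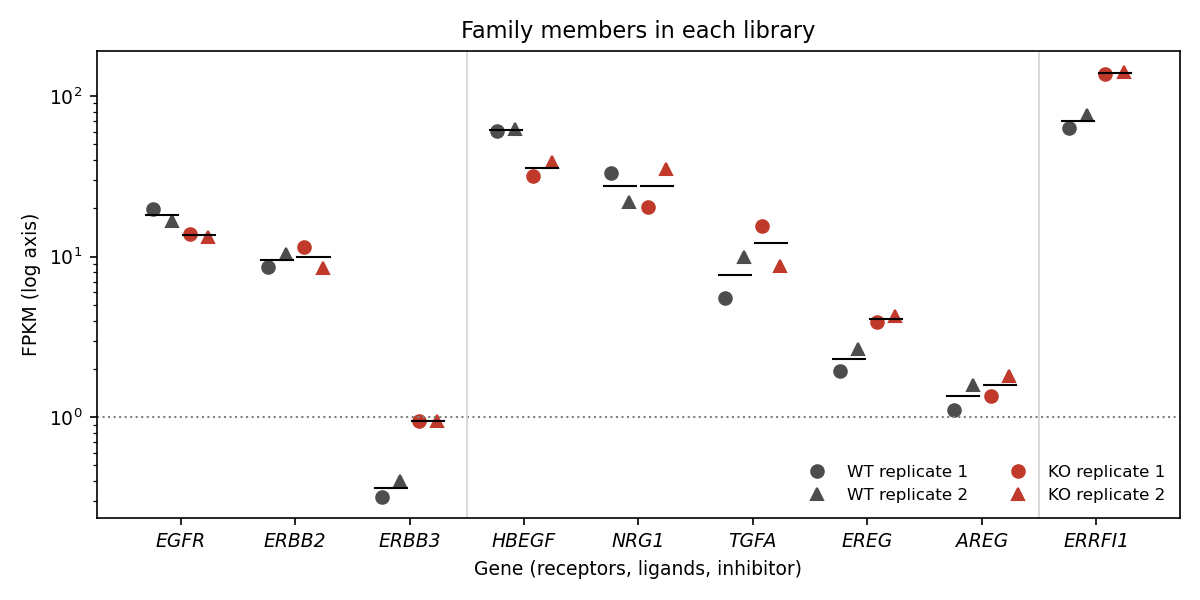
FPKM of the 9 members (log axis) in each of the 4 libraries, grouped into receptors, ligands and the inhibitor; grey symbols are WT, red symbols KO, circles replicate 1, triangles replicate 2, black bars group means (n = 2), and the dotted line the filter value of 1 FPKM. ERRFI1, EREG and ERBB3 have both KO symbols above both WT symbols, HBEGF and EGFR have both below, and the other 4 members overlap.

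Among receptors, EGFR was the most abundant in every library. EGFR (gene identifier 1956, chromosome 7 from 55019017 to 55211628, GRCh38.p14) was at 19.92 and 16.60 FPKM in WT and at 13.85 and 13.31 in KO. Both KO values were below both WT values. The means were 18.3 ± 2.35 and 13.6 ± 0.382 FPKM (SD, n = 2), and the log2 fold change was -0.40 ± 0.14 (SE, limma adjusted p 0.0772), which did not pass. After median of ratios scaling it was -0.50 (limma adjusted p 0.0398), so this call rests on the scaling.

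ERBB2 (gene identifier 2064, chromosome 17 from 39688094 to 39728658) was at 8.59 and 10.45 FPKM in WT and at 11.44 and 8.55 in KO. The groups overlapped, with the highest and the lowest value both in KO. The log2 fold change was 0.06 with a 95% interval of -0.36 to 0.47 (adjusted p 0.836 in limma), and its sign turned under both scalings tried (-0.042 and -0.029). ERBB2 RNA was thus measurable in a line classed as HER2-negative, a class set on protein or gene copies and not on RNA.

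ERBB3 (gene identifier 2065, chromosome 12 from 56080108 to 56103505) was at 0.32 and 0.40 FPKM in WT and at 0.94 in both KO libraries. Both KO values were above both WT values, and all 4 were under 1 FPKM, so it was not tested. Without the filter limma gave a log2 fold change of 0.51 and an adjusted p of 0.0640. The fourth receptor of the family, ERBB4, was listed at 0.01 FPKM in both WT libraries and at 0 in both KO libraries.

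As a share of the summed FPKM of the 4 receptor genes within a library, EGFR held 69.1% and 60.5% in WT and 52.8% and 58.4% in KO. Scaling a library by a single factor cannot alter such a share, while quantile normalization can. The KO shares were lower than both WT shares, with a mean difference of -9.17 percentage points. ERBB2 held 29.8% and 38.1% in WT and 43.6% and 37.5% in KO, and these overlapped. ERBB3 held 1.11% and 1.46% in WT and 3.58% and 4.12% in KO. With 2 libraries a group, an exact two-sided permutation test cannot give a p below 0.333, so these shares are descriptions.

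HBEGF was the most abundant ligand in every library. It encodes heparin-binding EGF-like growth factor, which binds EGFR and ERBB4. HBEGF (gene identifier 1839, chromosome 5 from 140332843 to 140346603) was at 60.72 and 62.50 FPKM in WT and at 31.93 and 38.88 in KO. Both KO values lay well below both WT values. The means were 61.6 ± 1.26 and 35.4 ± 4.91 FPKM (SD, n = 2), and HBEGF fell by 0.79 on the log2 scale, with an SE of 0.13, a 95% interval of -1.10 to -0.48 and an adjusted p of 0.00671 in limma. It passed with any 1 library left out.

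EREG, the gene of epiregulin, a ligand of EGFR and ERBB4, moved the other way at a far lower level. EREG (gene identifier 2069, chromosome 4 from 74365145 to 74388749) was at 1.94 and 2.65 FPKM in WT and at 3.90 and 4.25 in KO. Both KO values were above both WT values. The means were 2.30 ± 0.502 and 4.08 ± 0.248 FPKM (SD, n = 2), and the log2 fold change was 0.63 ± 0.16 (SE, limma adjusted p 0.0278). The call was lost without the first WT library (adjusted p 0.124), without the first or second KO library (0.0826 and 0.137) and after quantile normalization (0.0785).

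AREG, the gene of amphiregulin, an EGFR ligand, lies 56386 bases from EREG. AREG (gene identifier 374, chromosome 4 from 74445136 to 74455005) was at 1.11 and 1.59 FPKM in WT and at 1.36 and 1.81 in KO. The groups overlapped. Its log2 fold change was 0.14 with a 95% interval of -0.25 to 0.53 (adjusted p 0.566 in limma), and it was -0.051 after quantile normalization. The ratio of EREG to AREG, in FPKM, was 1.75 and 1.67 in WT and 2.87 and 2.35 in KO.

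EREG and AREG stand in a cluster of 4 ligand genes on chromosome 4, with EPGN (epigen) and BTC (betacellulin), that spans 486.1 kilobases. EPGN was at 0.04 and 0.06 FPKM in WT and at 0.08 and 0.16 in KO, and BTC at 0.01 and 0.11 in WT and at 0.79 and 0.33 in KO, all below the filter. Each of EREG, EPGN and BTC had both KO values above both WT values. The same was true of 39.3% of all tested genes, a set without EPGN and BTC. No such share was counted for genes below the filter. Within 2 megabases of EREG, 17 other genes were tested, and 7 rose and none fell. That is a share of 41.2% higher against 16.2% of all tested genes, and the neighbours were not counted after scaling. The 7 were PARM1, THAP6, G3BP2, USO1, NAAA, SCARB2 and STBD1, which all lie beyond AREG and BTC on 1 side, and their part in the rise of EREG was not tested. PARM1 was at 0.07 and 0.19 FPKM in WT and at 1.52 and 1.14 in KO, so it could be tested only by being higher in KO. Around HBEGF 9 of 50 tested neighbours rose and 3 fell, and around ERRFI1 4 of 28 rose and 5 fell.

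TGFA and NRG1 varied more between libraries of a group than between groups. TGFA encodes transforming growth factor alpha, an EGFR ligand (gene identifier 7039, chromosome 2 from 70447284 to 70553826), and was at 5.51 and 9.93 FPKM in WT and at 15.44 and 8.80 in KO. Only the first KO library exceeded both WT libraries. Its log2 fold change was 0.59 with a 95% interval of -0.11 to 1.29 (adjusted p 0.180 in limma).

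NRG1, the gene of neuregulin, a ligand of ERBB3 and ERBB4, is listed with 25 transcripts, which the single value does not separate. NRG1 (gene identifier 3084, chromosome 8 from 31639245 to 32774046) was at 33.12 and 21.75 FPKM in WT and at 20.34 and 35.09 in KO. Each group had 1 high and 1 low library, and the KO values enclosed the WT values. The log2 fold change was -0.01 with a 95% interval of -0.64 to 0.63 (adjusted p 0.990 in limma). Leaving out 1 library at a time moved the value between -0.38 and 0.37.

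NRG2, another neuregulin gene, was the only tested gene among the 7 receptors and ligands of the family outside the members. It was at 0.65 and 0.72 FPKM in WT and at 1.51 and 1.34 in KO and rose by 0.52 ± 0.14 on the log2 scale (SE, adjusted p 0.0290 in limma). The call was lost without any 1 library (adjusted p 0.0750 to 0.113) and after quantile normalization (0.146). NRG2 entered the test only through its KO values, which were the ones over 1 FPKM, so it could pass the filter only by being higher in KO. EGF was at 0.07 to 0.20 FPKM, NRG4 at 0.05 to 0.23 and NRG3 at 0 to 0.06.

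Over the 11 ligand genes the summed FPKM was 103 and 99.7 in WT and 75.7 and 91.1 in KO. HBEGF held 58.8% and 62.7% of it in WT and 42.2% and 42.7% in KO, a mean difference of -18.3 percentage points with close agreement within each group. NRG1 held 32.1% and 21.8% in WT and 26.9% and 38.5% in KO, and TGFA 5.34% and 9.97% in WT and 20.4% and 9.66% in KO, both with overlap. EREG held 1.88% and 2.66% in WT and 5.16% and 4.67% in KO. HBEGF thus held a smaller share in both KO libraries and EREG a larger one. The same held for AREG (1.075% and 1.596% in WT, 1.798% and 1.987% in KO) and NRG2 (0.630% and 0.723%, 1.996% and 1.471%). EGF, BTC, EPGN and NRG4, all below the filter, also had larger shares in both KO libraries. Shares of 1 sum are bound together, so a smaller HBEGF share leaves more for the others. NRG1 and TGFA differed between the KO libraries.

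**Figure D2:**
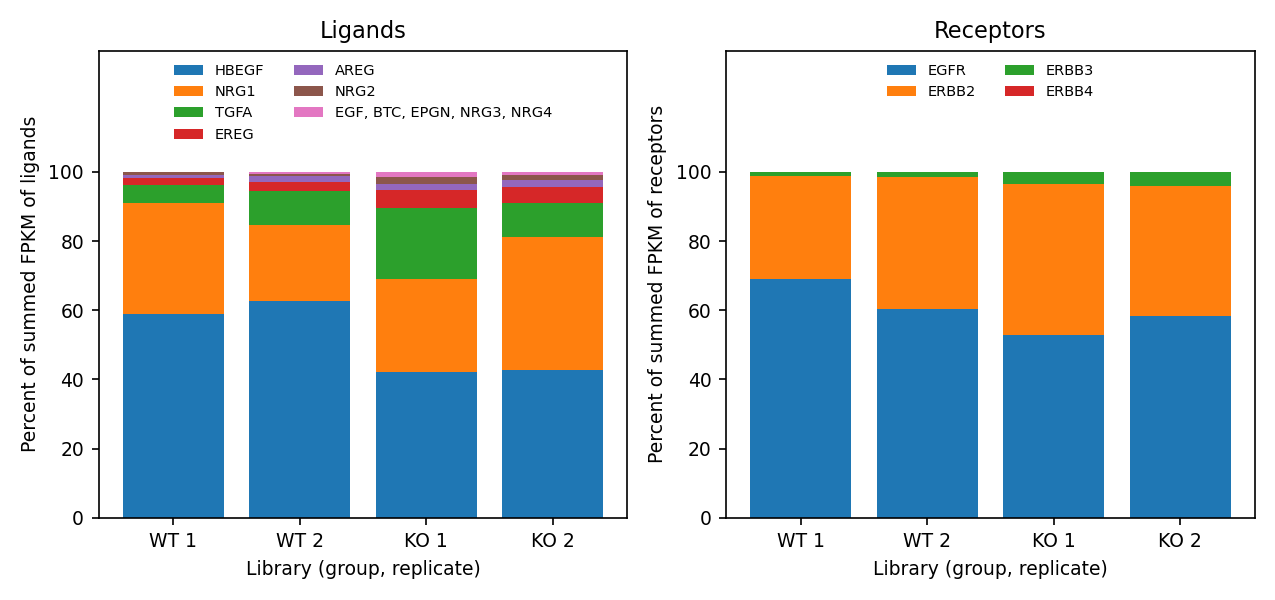
Percent of the summed FPKM of the 11 ligand genes (left) and of the 4 receptor genes (right) held by each gene in each library. The HBEGF segment is 58.8% and 62.7% in WT and 42.2% and 42.7% in KO, while NRG1 and TGFA differ between the KO libraries.

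ERRFI1, known as a feedback inhibitor that receptor signalling itself induces, was the most abundant member in both groups and the one with the largest called change. ERRFI1 (gene identifier 54206, chromosome 1 from 8011727 to 8026309) was at 63.54 and 75.94 FPKM in WT and at 136.80 and 141.36 in KO. The groups were far apart, and the KO libraries were close to each other. The means were 69.7 ± 8.77 and 139 ± 3.22 FPKM (SD, n = 2), a ratio of 1.99, and the log2 fold change was 0.99 ± 0.12 (SE, 95% interval 0.70 to 1.28, limma adjusted p 0.00274). It passed with any 1 library left out. Per unit of ERRFI1, EGFR RNA stood at 0.314 and 0.219 in WT and at 0.101 and 0.0942 in KO, as a ratio of FPKM values.

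Without the filter on low values, which raises the number of tested genes to 20804, no gene passed in limma (lowest adjusted p 0.0586, with 5620 genes at an unadjusted p under 0.05). The adjusted p was then 0.0700 for ERRFI1, 0.0843 for HBEGF and 0.142 for EREG, with the fold changes as before.

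**Figure D3:**
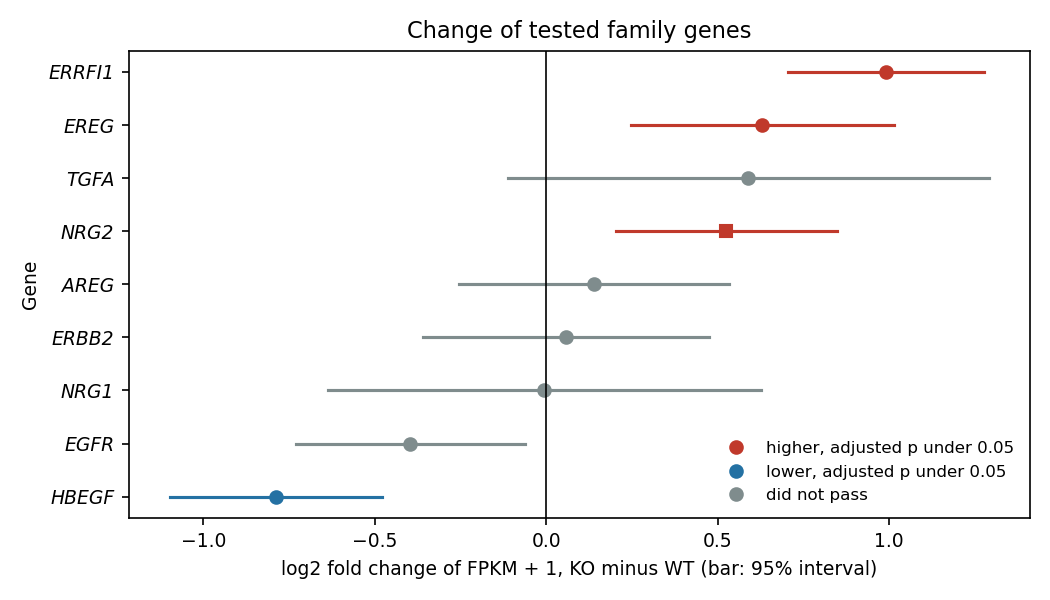
Log2 fold change of FPKM + 1, KO minus WT, for the 9 tested family genes, with 95% intervals from limma; circles are members, the square is NRG2, red passed as higher, blue as lower, grey did not pass. ERRFI1 (0.99) and HBEGF (-0.79) lie farthest from 0, and TGFA and NRG1 have the widest intervals.

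Ordered by mean FPKM, the WT members ran ERRFI1, HBEGF, NRG1, EGFR, ERBB2, TGFA, EREG, AREG and ERBB3. Of these neighbours in WT, ERBB2 and TGFA overlapped in range and the others did not. In KO the order was ERRFI1, HBEGF, NRG1, EGFR, TGFA, ERBB2, EREG, AREG and ERBB3. There HBEGF and NRG1 overlapped, as did EGFR with TGFA and TGFA with ERBB2. In both groups the low end was EREG, AREG and ERBB3, at 0.32 to 4.25 FPKM.

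Over the 4 libraries, the genes whose centred log2(FPKM + 1) values stayed closest to those of EGFR were STRBP, WWC1 and KPNB1, with a largest difference in any library of 0.01, 0.02 and 0.02. For ERRFI1 they were PSME2, AMDHD2 and OCIAD2, with 0.01, 0.03 and 0.03. With 11786 genes and 4 libraries such close profiles are easily found, and they say nothing of shared function.

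Other genes of the pathway were counted in 7 lists, in which 16 of 105 tested genes rose and 15 fell. That is 29.5% of the tested genes against 27% of all genes, and the median log2 fold change was 0.00 against 0.07 over all tested genes. Without the second WT library the calls numbered 14, without the first WT library 16 and without the second KO library 18.

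Among sheddases, the surface proteases that release ligands, and their regulators, 2 of 11 tested genes rose and 1 fell, with a median log2 fold change of 0.34. ADAM19, a metalloprotease that can cleave neuregulins, was at 9.20 and 9.44 FPKM in WT and at 2.24 and 2.11 in KO and fell by 1.70 on the log2 scale (adjusted p 0.000826 in limma). ADAM15 (0.58) rose, and ADAM8 (0.68) is the other gene called higher. ADAM17, the main protease for TGFA, AREG and HBEGF precursors, was at 8.53 and 8.92 FPKM in WT and at 8.67 and 8.99 in KO, with a 95% interval of -0.31 to 0.34 on the log2 scale, and was picked after its values were seen. ADAM15 did not pass without the first or second WT library (adjusted p 0.0713 and 0.0509), nor ADAM8 without the first WT (0.0698), first KO (0.0655) or second KO library (0.0631), and without the first WT library 1 gene of the list passed. ADAM8 was under 1 FPKM in both WT libraries and over it in both KO libraries, so it could be tested only by being higher in KO.

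Among 14 tested negative regulators of the receptors other than ERRFI1, 2 rose and 3 fell (median 0.04). LRIG1, a transmembrane protein that lowers receptor levels, was at 2.21 and 2.60 FPKM in WT and at 8.32 and 4.88 in KO and rose by 1.12 (adjusted p 0.0120 in limma), but not without the first WT library (0.0550). PTPRJ, a receptor phosphatase gene, rose by 0.86. SOCS3, a cytokine-induced suppressor of signalling, was at 29.05 and 28.56 FPKM in WT and at 18.42 and 14.80 in KO and fell by 0.77 on the log2 scale. SH3KBP1, an adaptor of the ubiquitin ligase CBL, fell by 0.55. Neither PTPRJ nor SOCS3 passed without the first WT library (adjusted p 0.0706 and 0.0515), PTPRJ did not without the first KO library (0.0772), and SH3KBP1 did not whichever library was left out (0.0569 to 0.0858). The list then had 0 calls without the first WT library, 3 without the second, 2 without the first KO library and 3 without the second. Without the first WT library 5 of them had an unadjusted p under 0.05 in limma.

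Of 20 tested genes of receptor endocytosis and sorting 3 rose and 3 fell (median 0.06). STAM2, of the sorting complex on endosomes, rose by 0.82, and RAB11A, of the recycling route to the surface, by 0.48. The clathrin adaptor genes EPS15L1 and EPN1 fell by 0.72 and 0.59. RAB11A did not pass whichever library was left out (adjusted p 0.0591 to 0.102), STAM2 not without the second WT or KO library (0.0515 and 0.0832) and EPN1 not without the second WT library (0.0650). The list had 3 calls without the first WT library, 1 without the second and 2 without the second KO library.

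Of 20 tested adaptors and proximal effectors 5 rose and 3 fell (median 0.01). The docking protein gene GAB2 was at 3.22 and 3.64 FPKM in WT and at 7.13 and 7.41 in KO and rose by 0.90 (adjusted p 0.00606 in limma), and the transcription factor gene STAT5A had a log2 fold change of 0.82 and is among the 5. STAT5A was under 1 FPKM in both WT libraries and entered the test only through its KO values, so it could be tested only by being higher in KO. CRKL, an adaptor, fell by 0.52, but did not pass whichever library was left out (0.0765 to 0.112). The list had 3 calls without the second WT library, 4 without the first KO library and 3 without the second.

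In the RAS-RAF-MEK-ERK cascade 1 of 14 tested genes rose and none fell (7.14%, median -0.03). It was RASA1, which speeds the return of RAS to its inactive state. RASA1 was at 14.13 and 11.30 FPKM in WT and at 30.50 and 31.78 in KO and rose by 1.24 ± 0.15 on the log2 scale (SE, adjusted p 0.00232 in limma). After median of ratios scaling 1 gene of the list rose and 2 fell, and without the first KO library 3 were called.

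Of 25 tested genes listed as ERK-responsive, 2 rose and 5 fell (median -0.14). These counts are not a measure of ERK activity. DUSP6, a phosphatase of ERK, was at 22.13 and 28.37 FPKM in WT and at 50.68 and 36.61 in KO and rose by 0.76 (adjusted p 0.0232 in limma), and the feedback inhibitor gene SPRY1 rose by 0.70. Neither passed without the first WT library (0.120 and 0.0812) or the first KO library (0.0996 and 0.0892). The immediate early gene IER2 was at 60.74 and 66.93 FPKM in WT and at 34.61 and 36.62 in KO and fell by 0.82 on the log2 scale (adjusted p 0.00430), and SRF, the gene of serum response factor, fell by 0.75. Without the second WT library 4 genes of the list were called. The other inhibitors of the pathway in the list, SPRY2, SPRY4, SPRED1, SPRED2, DUSP4 and DUSP5, did not pass.

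**Figure D4:**
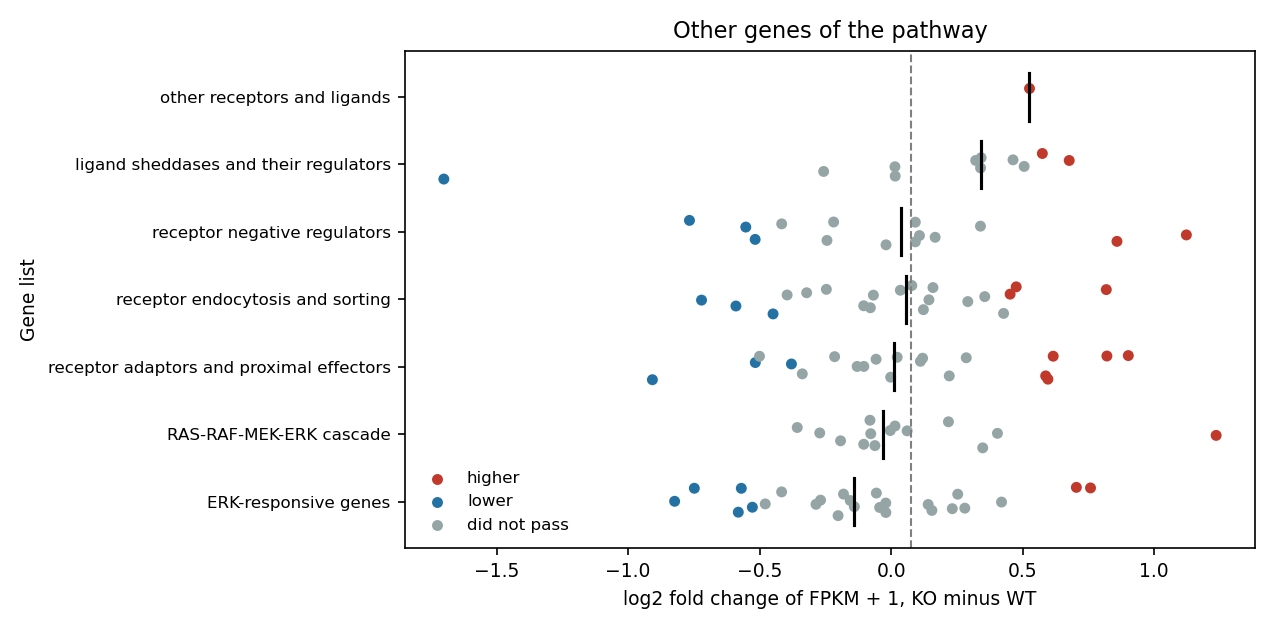
Log2 fold change of FPKM + 1, KO minus WT, of the tested genes in 7 lists of the pathway; each point is a gene (red higher, blue lower, grey did not pass; vertical position within a row is arbitrary), black bars are list medians and the dashed line is the median of all tested genes (0.07). ADAM19 (-1.70) and RASA1 (1.24) lie farthest out.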

How the data were processed

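Per the file headers, the authors deposited FPKM values with 2 decimals, 1 for each gene in each library. The submitters' processing notes name HISAT, StringTie, Cufflinks and GATK with the build hg38 and no roles. The step that made the values, and any filter, are not stated there. A spreadsheet had turned 11 symbols into dates, which were restored from gene identifiers. FPKM values were analysed as log2(FPKM + 1), which understates the change of low genes. The test was limma 3.58.1 (R 4.3.3) with a mean-variance trend and no further scaling, on genes that reached 1 FPKM in 2 or more libraries. Benjamini-Hochberg adjusted p-values under 0.05 over these genes were calls. Counts and shares were made with pandas 2.3.3 (Python 3.11.15). The fit was tested on simulated data with independent noise in each library, which cannot show whether the real libraries are separate cultures.

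Members and lists were chosen with earlier results of these data known. Named list genes are the 2 higher and 2 lower calls with the smallest p. One gene that the rule takes is not reported here. Of each list, genes under the filter or not listed were left out of the counts. Alternatives were another pseudocount, no filter or a filter of 5 FPKM, 2 scalings, no trend, a replicate block and leaving out each library. The window around EREG and the similar-length UTR shares were added after seeing the data.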

Additional observations from a re-analysis of the deposited data

How the results depend on the processing

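The direction of ERRFI1, HBEGF, EREG, EGFR and TGFA was the same under every alternative run. ERBB2 turned to -0.042 after median of ratios scaling and to -0.029 after quantile normalization, and AREG to -0.051 after the latter. With 1 library left out ERBB2 ranged from -0.13 to 0.25, AREG from -0.0083 to 0.29 and NRG1 from -0.38 to 0.37. Without the filter on low values 0 genes passed, members and pathway lists included (5620 genes at an unadjusted p under 0.05). The adjustment then covers more genes, and the unadjusted p-values changed as well, since the mean-variance trend was refitted with the low genes. Of the 105 tested genes of the pathway lists, 37 had an unadjusted limma p under 0.05, against 46 with the filter. The part of each in the loss of calls was not tested. With 1 library left out 1402 to 1902 genes passed, 2 to 3 members and 14 to 21 genes of the pathway lists. A fit then has 1 library in a group, whose spread is assumed to be that of the others. The NRG1 share of ligands, KO minus WT, ranged from -0.08 to 11.6 percentage points.

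Of all calls 59.9% were higher, against 43.6% after median of ratios scaling and 46.5% after quantile normalization. In the single list counts, 53 of 84 alternative values were within 1.5 times of the reported one. The labels number the libraries but do not say that a number pairs them. With the replicate block 2864 genes, 3 members and 28 genes of the pathway lists passed, and of the named genes CRKL was lost (adjusted p 0.0531). Across genes the deviations of same-numbered libraries correlated at -0.177, and with the crossed replicate block, added after seeing the data, 4170 genes, 4 members and 39 list genes passed.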

Other observations

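Libraries of the KO group differed from each other in several genes of the pathway, in both directions, as did the WT libraries in some of them. Higher in the first KO library than in the second were TGFA (15.44 and 8.80 FPKM), LRIG1 (8.32 and 4.88), DUSP6 (50.68 and 36.61) and SPRY2, a feedback inhibitor gene (65.52 and 31.59, against 31.36 and 36.43 in WT). SPRY2 had a log2 fold change of 0.42 with an adjusted p of 0.311 in limma. Lower in the first than in the second were NRG1 (20.34 and 35.09 FPKM) and, from the list of negative regulators, UBASH3B (11.37 and 14.27). So were the phosphatase genes DUSP5 (51.26 and 56.91) and PTPN12 (24.02 and 32.96). ERRFI1 was nearly equal in both (136.80 and 141.36), as was SPRY4 (27.15 and 26.15). In WT, first library before second, TGFA was at 5.51 and 9.93 FPKM, NRG1 at 33.12 and 21.75 and DUSP5 at 46.12 and 51.83. LRIG1 was at 2.21 and 2.60 FPKM there, DUSP6 at 22.13 and 28.37, PTPN12 at 28.14 and 24.11 and UBASH3B at 20.24 and 17.21. These genes were picked after their values were seen, and the spread between the libraries of either group was not tested.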
